A study of Drosophila melanogaster with 31 samples.

Results

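The genes described here had lower transcript levels in wing discs with cells that lack both capicua (cic) and warts (wts) than in other groups. They were chosen from raw read counts of 18 RNA-seq libraries, divided by each library's total and put on the usual CPM scale, on which every library has the same sum. A gene was kept if it averaged at least 5 CPM in each of the 4 groups without the double mutation. In addition, all 6 double mutant libraries had to lie below all 12 other libraries, and both double mutant means had to be no more than 0.77 of the lowest of the 4 other means. Of 17373 genes in the table, 6559 met the minimum level, 74 of these were separated in this way, and 36 also met the ratio. Of the 36, 9 were set aside by name (Cpr64Aa, Optix, Ance, E(spl)m2-BFM, E(spl)m6-BFM, Doc3, ara, Doc2 and dpp), which left 27 members. The names left out were symbols starting with E(spl), Cpr or Doc, and vn, Ance, Optix, eyg, ara, vg, dpp and cic. All 18 libraries and each comparison of the double mutants with the other groups were used for the choice. The double mutant values below are therefore a description and carry no test. The choice did not set the other 4 groups against each other, nor the days of the double mutants, and these differences were tested. The values of all these groups still entered the rule, through the minimum level, the separation and the group means. Shares of members that passed are therefore not independent of the choice.

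Wing imaginal discs are the larval epithelia that form the adult wing and notum. All discs carried the flippase transgene ubxflp, which is driven by Ubx regulatory sequence, and an FRT82B chromosome with a Minute mutation, M(3), and the marker ubiGFP. Recombination left patches of homozygous cells among slower growing M(3) heterozygous cells. The partner FRT82B chromosome carried cicQ474X and wts149 in cic wts discs (day 5 and day 9), wts149 alone in wts discs (day 5 and day 9), cicQ474X alone in cic discs (day 5) and neither allele in control discs (day 5). Each group had 3 libraries, each from pooled discs of 12 to 35 larvae, and nothing in the labels says that the pools came from separate cultures. The p-values therefore measure only the spread between pools, which may be technical. The RNA is from whole discs: the share of mutant cells was not analysed here, and fewer cells of a type cannot be told apart from less RNA per cell.

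Capicua represses target genes until Ras/EGFR signalling relieves it. Warts is the kinase of the Hippo pathway that restrains the co-activator Yorkie, which acts with the DNA-binding protein Scalloped. In the disc, Hedgehog secreted by posterior cells induces Dpp, a BMP ligand, in a stripe of anterior cells, and Dpp in turn patterns the wing blade along its anterior-posterior axis. The notum is specified by EGFR signalling through vein and by Dpp, with the GATA factor Pannier in its medial part and the Iroquois factors in its lateral part. The title of the series concerns how Hippo signalling changes the response to Ras.

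Library totals ranged from 14201662 to 26217144 counts. Markers of the wing disc epithelium summed to between 2285 and 3003 CPM in the cic wts libraries and between 2532 and 3138 CPM in the other libraries, and all 7, with the member pnr among them, were detected. Single markers moved in opposite directions within these sums. At day 9, vg stood at 65.6 to 75.6 CPM in cic wts discs and 123 to 140 CPM in wts discs. For tsh the ranges were 562 to 662 CPM and 448 to 463 CPM. Of the 6 markers other than pnr, 2 rose and 1 fell in this comparison. The cic transcript stood at 438 to 509 CPM in cic wts discs, at 605 to 739 CPM in wts discs, at 409 to 593 CPM in cic discs and at 558 to 665 CPM in control discs. Transcripts of wts were higher in the libraries with the wts149 allele (163 to 276 CPM) than in cic and control libraries (99.3 to 112 CPM). The cic ranges of cic and control discs overlapped, so the level does not separate these labels. Transcripts of other tissues stood apart in several libraries: hemocyte markers summed to 1700.2 CPM in cic wts day 5 replicate 1, fat body markers to 621 CPM in cic wts day 5 replicate 2 and salivary gland markers to 5488 CPM in control replicate 3. In control replicate 2 differentiated muscle markers summed to 1116 CPM and salivary gland markers to 248 CPM, against at most 490.4 CPM of muscle markers in every other library. Fat body markers also summed to 217 CPM in wts day 9 replicate 2, against 12.5 and 29.7 CPM in the other wts day 9 libraries. With cic wts day 5 replicates 1 and 2 and control replicate 3 left out, which leaves 1 cic wts library of day 5, the same rule found 41 genes, 25 of the 27 members among them; caup and hh dropped out. Their part in the levels was not tested.

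The members hold components of the Hedgehog, BMP and FGF pathways, transcription factors that pattern the notum and the limb, and genes of the cytoskeleton and of metabolism. Relative to wts discs of the same day, the median member stood at 58.8% in cic wts discs at day 5 and at 52.2% at day 9. Relative to control discs, which were collected at day 5 only, it stood at 37.4% in cic wts discs at day 5 and at 40.2% at day 9. The day 9 value differs from control in both genotype and day. The lowest was CG2016, at 13.2% of its wts level and 6.22% of its control level at day 5. At the other end, caup stood at 76.1% of its wts level at day 5 and blow at 70.4% at day 9.

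**Figure D1:**
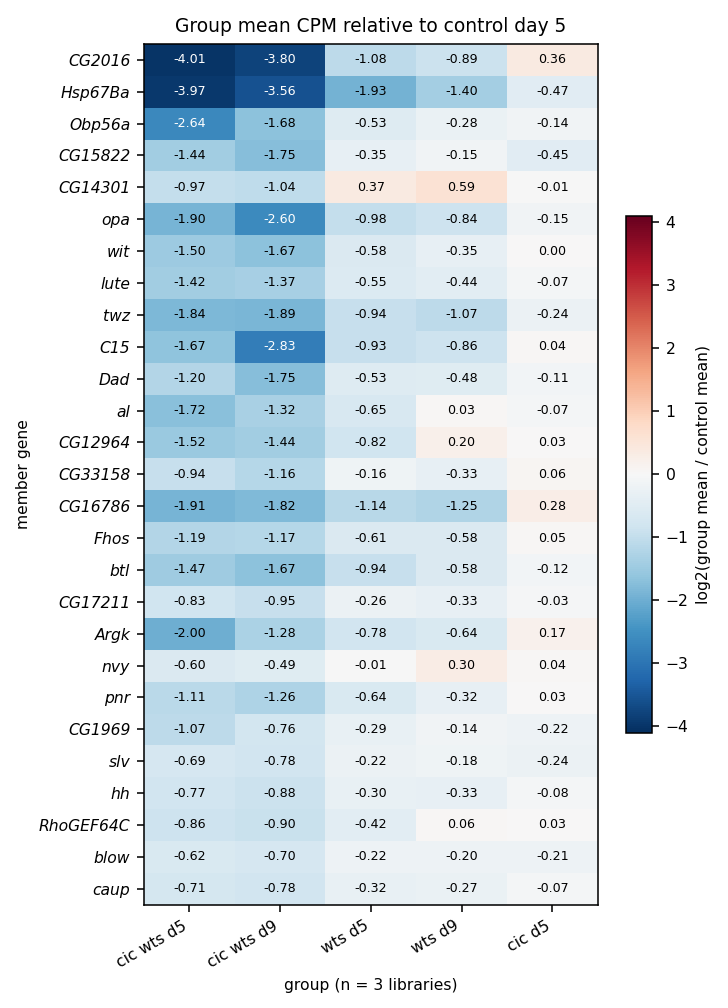
Log2 ratio of each group's mean CPM (n = 3 libraries) to the day 5 control mean for the 27 members, ordered by the selection ratio. Columns are cic wts day 5, cic wts day 9, wts day 5, wts day 9 and cic day 5. Blue cells fill both cic wts columns by selection, paler blue fills most of the wts columns, where CG16786 reads -1.14 at day 5, and the cic column lies near 0, from -0.47 to 0.36.

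The levels were not confined to 2 classes, double mutant and the rest. Of the 27 members, 13 fell in wts discs against control discs at day 5 and 0 rose, 48.1% of the members against 8.16% of all 9004 tested genes that fell in this comparison (edgeR quasi-likelihood test, Benjamini-Hochberg adjusted p under 0.05, as for all tests that follow; values are log2 fold change ± standard error). The median log2 fold change of the members was -0.49, and that of all tested genes was 0.00071. Of the 27 members, 25 were below 0 (92.6%), against 49.9% of all tested genes. In 18 of the 27 members all 3 wts libraries lay below all 3 control libraries, a separation that 22.9% of all tested genes showed. The wts and control libraries were also used in the choice, so these shares are not independent of it. The members are therefore not a set lowered only in double mutants: 13 were also lower after loss of wts alone, and for the other 14 no fall passed the test. They are called here the genes with their lowest levels in cic wts discs. For 11 of the 13 the fall passed in each of the 6 fits that left out 1 of the libraries compared. The exceptions were twz and Argk. Markers of other tissues moved in the same comparison: 3 of 7 markers of adult muscle progenitors, 2 of 10 tested markers of differentiated muscle, 1 of 6 of fat body and 6 of 6 of salivary gland fell, while 0 of 9 hemocyte markers did. The marker sums were 373 to 394 CPM in wts discs and 454 to 514 CPM in control discs for muscle progenitors. They were 195 to 318 CPM in wts discs and 353 to 1116 CPM in control discs for differentiated muscle. For fat body they were 5.14 to 26.4 CPM in wts discs and 12.8 to 185 CPM in control discs. Salivary gland markers summed to at most 0.563 CPM in wts discs and to 3.24 to 5488 CPM in control discs. Without cic wts day 5 replicates 1 and 2 and control replicate 3, 12 of the 27 members fell. Without control replicates 2 and 3, which leaves 1 control library that is assumed to vary like the others, 9 fell. Then wit (-0.35, adjusted p = 0.21), CG12964 (-0.59, adjusted p = 0.051), Fhos (-0.42, adjusted p = 0.057) and Argk (-0.71, adjusted p = 0.11) did not pass with edgeR. The part of these tissues was otherwise not tested.

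In cic discs against control discs, 0 of the 27 members passed in either direction (edgeR; 2 at an unadjusted p under 0.05, or 7.41% against 10.7% of all tested genes, and 0 with DESeq2), where 1.63% of all tested genes passed the adjusted threshold (0.955% higher, 0.677% lower). Their log2 fold changes ran from -0.47 for Hsp67Ba to 0.37 for CG2016, with a median of -0.06 against -0.0035 over all tested genes.

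**Figure D2:**
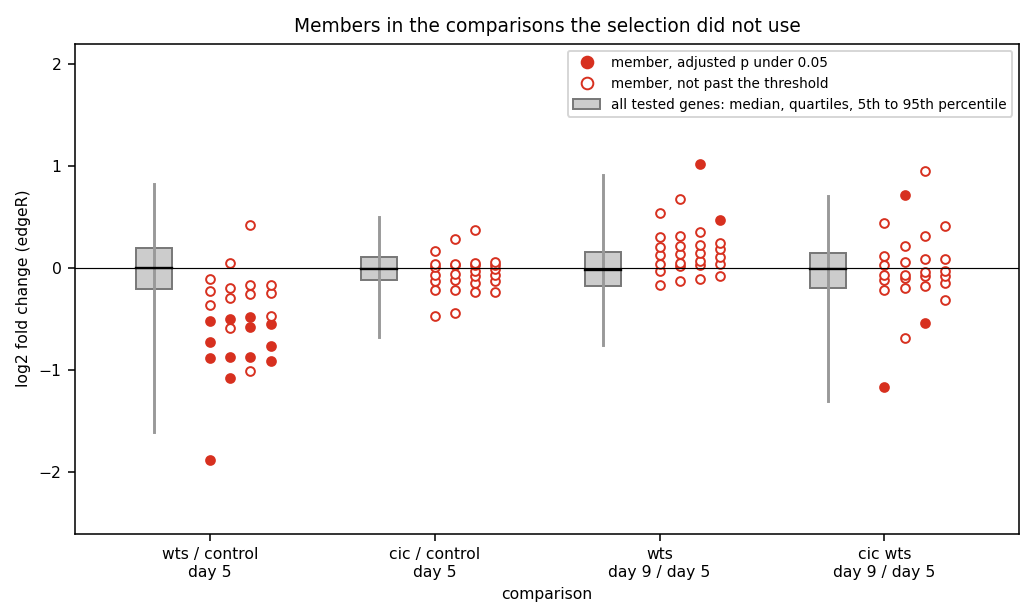
Log2 fold changes (edgeR) of the 27 members in 4 comparisons between groups that the rule did not set against each other. Filled points passed an adjusted p of 0.05 and open points did not. Grey boxes with lines give the quartiles and the 5th to 95th percentiles of all 9004 tested genes. In wts against control discs, 13 members are filled, all below 0, while the cic against control points gather around 0 with 0 filled.

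Of the signalling genes, wishful thinking (wit) encodes a type II BMP receptor known from retrograde signalling at the neuromuscular junction. It measured 24.9, 25.7 and 24.2 CPM at day 5 and 23.1, 22.4 and 20.6 CPM at day 9 in cic wts discs. In wts discs, wit stood at 51.2, 45 and 45 CPM at day 5 and 56.5, 53.8 and 55.1 CPM at day 9. In cic discs wit stood at 65, 61.2 and 85 CPM and in control discs at 62, 69.2 and 79.6 CPM. All 3 day 9 libraries of cic wts discs lay below the 3 of day 5, but this day difference of -0.17 ± 0.12 did not pass (adjusted p = 0.37). The wts libraries of day 5 stood below every control library. The fall in wts discs was -0.51 ± 0.11, adjusted p = 0.0062. Daughters against dpp (Dad) encodes the inhibitory Smad that Dpp signalling induces as a feedback brake. It stood at 99.1, 89 and 76.2 CPM at day 5 and 62.9, 64.5 and 53.2 CPM at day 9 in cic wts discs. In wts discs, Dad stood at 131, 154 and 134 CPM at day 5 and 145, 148 and 142 CPM at day 9. Levels in cic discs were 201, 172 and 189 CPM and in control discs 219.6, 204 and 185 CPM. The wts libraries of both days lay below the cic and control libraries, and the 3 day 9 libraries of cic wts discs lay below the 3 of day 5. It fell in wts against control discs (-0.48 ± 0.10, adjusted p = 0.0039) and in cic wts discs at day 9 against day 5 (-0.54 ± 0.10, adjusted p = 0.0043). Without cic wts day 5 replicates 1 and 2 and control replicate 3, which leaves 1 day 5 library, the day change was -0.36 and did not pass (adjusted p = 0.21).

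Hedgehog (hh), the ligand of posterior cells, differed less between groups. It measured 36.2, 46.8 and 45.3 CPM at day 5 and 41.7, 41.3 and 36.5 CPM at day 9 in cic wts discs. In wts discs, hh stood at 60.2, 62.4 and 55.5 CPM at day 5 and 59.5, 56.4 and 58.9 CPM at day 9. Cic discs had 59.4, 67.4 and 80.3 CPM and control discs 78.3, 65.6 and 75.5 CPM. The wts day 5 libraries were all below the control libraries, but the difference of -0.24 ± 0.12 did not pass (adjusted p = 0.16). Breathless (btl) encodes an FGF receptor that guides tracheal cells. It measured 5.35, 5.73 and 4.42 CPM at day 5 and 4.25, 4.67 and 4.52 CPM at day 9 in cic wts discs. In wts discs, btl stood at 6.38, 8.66 and 7.32 CPM at day 5 and 10.2, 8.38 and 10.0 CPM at day 9. In cic discs btl was at 11.2, 15.9 and 12.3 CPM and in control discs at 14, 14.1 and 14.8 CPM. The 3 control values lay close together and above all wts values, and the fall in wts discs was -0.88 ± 0.14, adjusted p = 0.00077. Of the other 7 tracheal markers, 2 rose and 1 fell in wts against control discs. In cic wts against wts discs, 0 rose and 1 fell at day 5, and 0 rose and 3 fell at day 9. Their part in the level of btl was not tested.

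**Figure D3:**
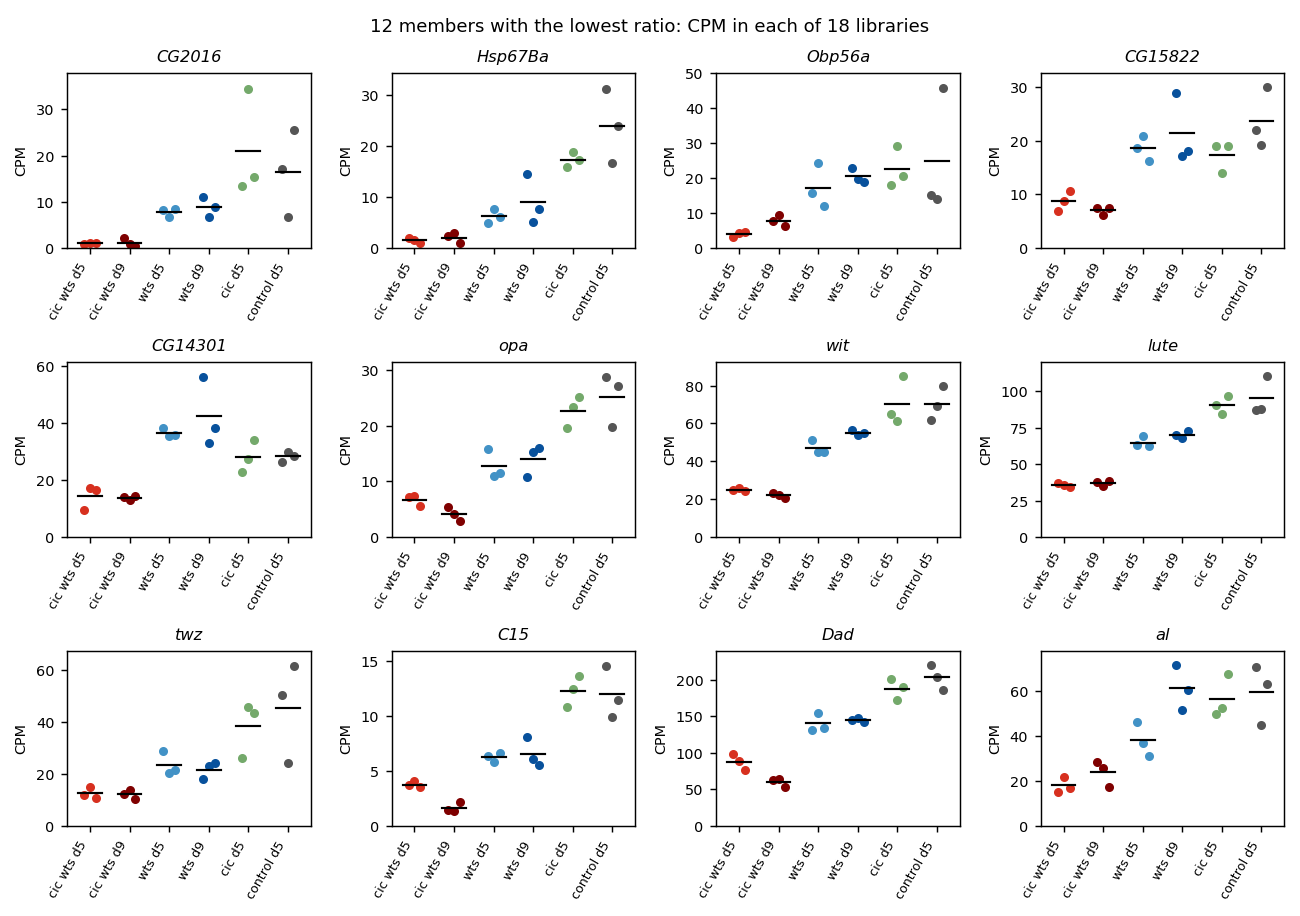
CPM in each of the 18 libraries for the 12 members with the lowest selection ratio; points are libraries, bars are group means, and the vertical axes start at 0. Both cic wts groups lie at the bottom of each panel by selection, and for opa, lute, C15 and Dad the wts points stand between them and the cic and control points.

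Among transcription factors of the notum, pannier (pnr), a GATA factor of the medial notum, measured 23.9, 17.1 and 17 CPM at day 5 and 17.1, 19.3 and 15.9 CPM at day 9 in cic wts discs. In wts discs, pnr stood at 24.4, 28.8 and 27.3 CPM at day 5 and 37.1, 29.2 and 33.7 CPM at day 9. It stood at 40.1, 42.2 and 45.1 CPM in cic discs and at 44.1, 37.6 and 43.5 CPM in control discs. The highest cic wts library, day 5 replicate 1, reached 97.9% of the lowest other library. The fall of pnr in wts discs was -0.58 ± 0.13, adjusted p = 0.0057. Caupolican (caup), a homeobox factor of the Iroquois complex, measured 77.9, 95.4 and 105 CPM at day 5 and 97.2, 80.2 and 86.7 CPM at day 9 in cic wts discs. In wts discs, caup stood at 125, 128 and 111 CPM at day 5 and 113, 128 and 137 CPM at day 9. Cic discs held 138, 137 and 159.5 CPM and control discs 155, 137 and 163 CPM. Its value in wts against control discs was -0.26 ± 0.11 and did not pass (adjusted p = 0.13). Caup had the selection ratio nearest the threshold, 76.1%, and left the set without wts day 5 replicate 1, wts day 5 replicate 2 or cic wts day 5 replicate 1. Its paralog araucan (ara) met the same numeric conditions with a ratio of 0.642, and reads of these similar genes may be shared.

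The homeobox and zinc finger genes opa, C15 and al stood lower relative to the other groups. Odd paired (opa), a zinc finger factor first known as a pair-rule gene of the embryo, measured 7.19, 7.35 and 5.65 CPM at day 5 and 5.4, 4.12 and 2.93 CPM at day 9 in cic wts discs. In wts discs, opa stood at 15.8, 11.1 and 11.5 CPM at day 5 and 10.8, 15.3 and 16.1 CPM at day 9. In cic discs it stood at 19.6, 23.4 and 25.2 CPM and in control discs at 28.7, 19.7 and 27.1 CPM. The wts libraries of both days lay between the cic wts libraries and the cic and control libraries, and the fall in wts discs was -0.91 ± 0.21, adjusted p = 0.0087. C15, a homeobox gene that patterns the distal leg, measured 3.72, 4.06 and 3.51 CPM at day 5 and 1.48, 1.34 and 2.21 CPM at day 9 in cic wts discs. In wts discs, C15 stood at 6.33, 5.84 and 6.6 CPM at day 5 and 8.08, 6.12 and 5.55 CPM at day 9. Its level was 10.8, 12.4 and 13.6 CPM in cic discs and 14.5, 9.88 and 11.5 CPM in control discs. C15 fell in wts against control discs (-0.87 ± 0.19, adjusted p = 0.0059) and again in cic wts discs at day 9 against day 5 (-1.16 ± 0.21, adjusted p = 0.0036), with no overlap between libraries in either comparison. With 1 day 5 library, after the same 3 libraries were left out, the day change was of similar size, -1.09, and did not pass (adjusted p = 0.14). Aristaless (al), which acts with C15 at the leg tip, measured 15.4, 22 and 17.2 CPM at day 5 and 28.4, 26 and 17.6 CPM at day 9 in cic wts discs. In wts discs, al stood at 46.3, 36.8 and 31.2 CPM at day 5 and 71.5, 51.5 and 60.7 CPM at day 9. Al had 49.7, 52.7 and 67.9 CPM in cic discs and 70.8, 45.2 and 63.3 CPM in control discs. Wts and control libraries overlapped at day 5, and neither its value there (-0.58 ± 0.22, adjusted p = 0.072) nor that of wts discs at day 9 against day 5 (0.68 ± 0.22, adjusted p = 0.066) passed.

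Of the transcription members, lute encodes a BTB domain protein. It measured 37.2, 35.5 and 34.1 CPM at day 5 and 37.7, 35 and 38.3 CPM at day 9 in cic wts discs. In wts discs, lute stood at 63.3, 69.3 and 62.2 CPM at day 5 and 70.2, 67.9 and 72.9 CPM at day 9. In cic discs lute stood at 90.9, 84.5 and 97.2 CPM and in control discs at 87.2, 88 and 111 CPM. No library of cic wts discs overlapped wts discs and no wts library overlapped cic or control discs, and the fall in wts discs was -0.49 ± 0.08, adjusted p = 0.00088. Nervy (nvy), a co-repressor gene of the ETO family, had a narrow gap: its highest cic wts library reached 98.2% of the lowest other library. Nvy averaged 11.9 ± 2.44 CPM at day 5 and 12.8 ± 2.49 CPM at day 9 in cic wts discs, against 17.8 ± 1.07 CPM at day 5 and 22 ± 5.01 CPM at day 9 in wts discs (mean ± SD, n = 3). In wts against control discs it gave 0.05 ± 0.17 (adjusted p = 0.87).

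**Figure D4:**
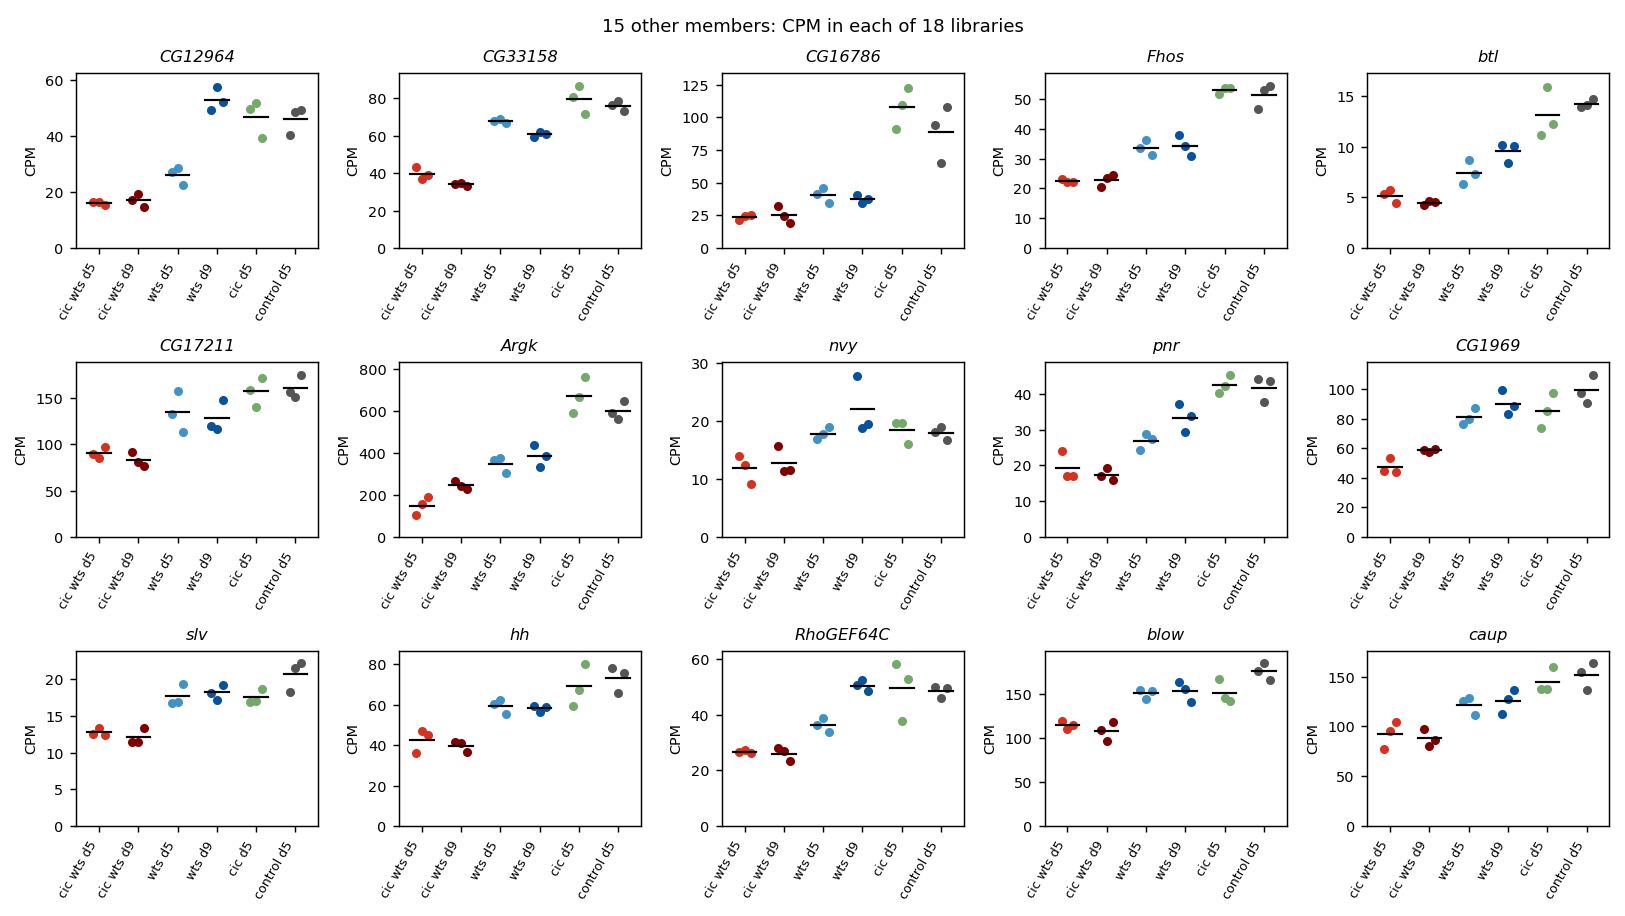
CPM in each of the 18 libraries for the 15 other members; points are libraries, bars are group means, and the vertical axes start at 0. Argk and CG16786 show a wide gap between the wts and the cic and control points, RhoGEF64C and CG12964 are higher in wts discs at day 9 than at day 5, and nvy, pnr and caup show the narrowest gaps between cic wts and the other libraries.

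The 3 members with the lowest selection ratios, CG2016, Hsp67Ba and Obp56a, are described together here, and 1 of these 3 fell in wts discs. They are not known to form a functional class, and none was tested. CG2016, whose current symbol is Jhbp2, measured 0.918, 1.11 and 1.03 CPM at day 5 and 2.25, 0.832 and 0.462 CPM at day 9 in cic wts discs. In wts discs, CG2016 stood at 8.2, 6.69 and 8.34 CPM at day 5 and 10.9, 6.73 and 8.95 CPM at day 9. It stood at 13.5, 34.4 and 15.4 CPM in cic discs and at 17.1, 6.6 and 25.5 CPM in control discs. The 9 counts in cic wts day 9 replicate 3 were the lowest of any member, and control replicate 2 lay below the lowest wts library. The value of -1.01 ± 0.47 in wts discs did not pass (adjusted p = 0.15). The small heat shock gene Hsp67Ba had 2.04, 1.56 and 0.992 CPM at day 5 and 2.29, 2.87 and 0.924 CPM at day 9 in cic wts discs. In wts discs, Hsp67Ba stood at 4.96, 7.75 and 6.14 CPM at day 5 and 14.5, 5.09 and 7.61 CPM at day 9. Its level was 15.8, 18.8 and 17.2 CPM in cic discs and 31.2, 16.7 and 23.9 CPM in control discs. Among members it had the largest fall in wts discs, -1.88 ± 0.38, adjusted p = 0.0035. Obp56a, of the odorant-binding protein family, had 3.26, 4.17 and 4.54 CPM at day 5 and 7.79, 9.3 and 6.16 CPM at day 9 in cic wts discs. In wts discs, Obp56a stood at 15.6, 24.2 and 11.9 CPM at day 5 and 22.8, 19.6 and 18.9 CPM at day 9. In cic discs it stood at 18, 29 and 20.6 CPM and in control discs at 15, 14.1 and 45.5 CPM. Control replicate 3, the library with the salivary gland transcripts, was the high one, and without it the log2 fold change in wts discs was 0.28 in place of -0.46, neither past the threshold.

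Cytoskeletal members were Fhos, a formin gene, RhoGEF64C, which encodes a guanine nucleotide exchange factor, and blown fuse (blow), known from myoblast fusion. Fhos averaged 22.5 ± 0.476 CPM at day 5 and 22.8 ± 2.06 CPM at day 9 in cic wts discs, against 33.7 ± 2.48 CPM at day 5 and 34.4 ± 3.52 CPM at day 9 in wts discs (mean ± SD, n = 3, as below), and fell in wts against control discs by 0.55 (adjusted p = 0.00091). RhoGEF64C measured 26.7, 27.2 and 26.4 CPM at day 5 and 28, 27 and 23.3 CPM at day 9 in cic wts discs. In wts discs, RhoGEF64C stood at 36.3, 38.9 and 33.8 CPM at day 5 and 50.8, 52.4 and 48.4 CPM at day 9. It had 58.3, 37.8 and 53 CPM in cic discs and 50.1, 46 and 49.8 CPM in control discs. In wts discs it rose at day 9 against day 5 (0.47 ± 0.12, adjusted p = 0.032), a call that did not pass in any of the 6 fits lacking 1 of these libraries (adjusted p up to 0.12). Blow averaged 115 ± 4.5 CPM at day 5 and 108 ± 10.6 CPM at day 9 in cic wts discs, against 151 ± 5.22 CPM at day 5 and 154 ± 11.6 CPM at day 9 in wts discs, and its value in wts against control discs did not pass (-0.16 ± 0.08, adjusted p = 0.19). Adult muscle progenitors lie beneath the disc epithelium, and 3 of their 7 markers fell in cic wts against wts discs at day 5 and 3 at day 9. Their sum was 318 to 368 CPM in cic wts discs against 373 to 394 CPM in wts discs at day 5, and 398 to 451 CPM in cic wts discs against 464 to 501 CPM in wts discs at day 9. The part of these cells in the levels of blow and the other members was not tested.

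The 3 metabolic genes had ratios between 70.5% and 72.9%: the arginine kinase gene Argk, CG1969, whose current symbol is Gnpnat and which encodes an acetyltransferase of the hexosamine pathway, and slv, a sugar transporter gene of the SWEET family. Argk measured 104, 155 and 189.8 CPM at day 5 and 266, 244 and 228 CPM at day 9 in cic wts discs. In wts discs, Argk stood at 367, 376 and 305 CPM at day 5 and 439, 334 and 384 CPM at day 9. It stood at 591, 667 and 761 CPM in cic discs and at 589, 559.6 and 649 CPM in control discs. Argk fell in wts against control discs (-0.72 ± 0.17, adjusted p = 0.011), a call lost without wts day 5 replicate 3 (adjusted p = 0.056). It rose in cic wts discs at day 9 against day 5 (0.72 ± 0.18, adjusted p = 0.019), though 3 of the 6 fits lacking 1 library did not call it (adjusted p up to 0.095), nor did the fit of only these groups (adjusted p = 0.066). With 1 day 5 library it was 0.36 (adjusted p = 0.43). The lowest of its cic wts values was that of day 5 replicate 1, the library with the hemocyte transcripts. CG1969 averaged 47.3 ± 5.04 CPM at day 5 and 58.5 ± 1.15 CPM at day 9 in cic wts discs, against 81.1 ± 5.39 CPM at day 5 and 90.1 ± 8.21 CPM at day 9 in wts discs. Slv averaged 12.8 ± 0.48 CPM at day 5 and 12.1 ± 1.14 CPM at day 9 in cic wts discs, against 17.7 ± 1.42 CPM at day 5 and 18.2 ± 1.03 CPM at day 9 in wts discs. Neither CG1969 (-0.23 ± 0.10, adjusted p = 0.14) nor slv (-0.16 ± 0.09, adjusted p = 0.24) passed in wts against control discs.

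No role is given here for the last 7 members, CG15822, CG14301, twz, CG12964, CG33158, CG16786 and CG17211, of which 3 fell in wts discs. CG16786 measured 21.7, 24.5 and 25.1 CPM at day 5 and 31.9, 24.7 and 19.2 CPM at day 9 in cic wts discs. In wts discs, CG16786 stood at 41.1, 45.6 and 34.6 CPM at day 5 and 40.5, 34.6 and 37.7 CPM at day 9. In cic discs it stood at 91.2, 109.8 and 123 CPM and in control discs at 93.9, 65.2 and 108 CPM. The wts and control libraries did not overlap, and the fall in wts discs, -1.08 ± 0.19, adjusted p = 0.0011, stood beside a cic wts mean at 58.8% of the wts mean at day 5. CG12964 measured 16.4, 16.5 and 15.2 CPM at day 5 and 17.3, 19.2 and 14.6 CPM at day 9 in cic wts discs. In wts discs, CG12964 stood at 27.2, 28.4 and 22.5 CPM at day 5 and 49.2, 57.4 and 52 CPM at day 9. It had 49.5, 51.9 and 39.2 CPM in cic discs and 40.4, 48.6 and 49.1 CPM in control discs. It fell in wts against control discs at day 5 (-0.76 ± 0.12, adjusted p = 0.00077), and all 3 wts libraries of day 9 lay above the highest control library, a rise over day 5 of 1.02 ± 0.12, adjusted p = 0.00046. Twz had 12, 15.1 and 10.9 CPM at day 5 and 12.5, 14 and 10.5 CPM at day 9 in cic wts discs. In wts discs, twz stood at 28.7, 20.4 and 21.8 CPM at day 5 and 18, 23 and 24.1 CPM at day 9. Its levels were 26.1, 45.7 and 43.7 CPM in cic discs and 50.3, 24.4 and 61.7 CPM in control discs. Control replicate 2 lay within the wts range, and the fall of twz in wts discs was -0.87 ± 0.27, adjusted p = 0.039. It was lost in 4 of the 6 fits lacking 1 library (adjusted p up to 0.16), with the replicate number as a block, and in 2 other settings.

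CG14301 and CG15822, like slv, had the lowest of the 4 other group means in cic discs; for 19 members it was in wts discs at day 5 and for 5 in wts discs at day 9. CG14301 measured 9.49, 17.3 and 16.7 CPM at day 5 and 14.1, 13 and 14.3 CPM at day 9 in cic wts discs. In wts discs, CG14301 stood at 38.4, 35.6 and 36 CPM at day 5 and 56.4, 33.1 and 38.4 CPM at day 9. It stood at 22.8, 27.4 and 34.1 CPM in cic discs and at 26.4, 30.0 and 28.6 CPM in control discs. All 3 wts day 5 libraries were above the control libraries, the opposite order to most members, although the value of 0.43 ± 0.21 did not pass (adjusted p = 0.17). In the fit of wts and control libraries alone CG14301 was called higher (0.42, adjusted p = 0.016, edgeR). CG15822 measured 6.83, 8.79 and 10.6 CPM at day 5 and 7.55, 6.24 and 7.39 CPM at day 9 in cic wts discs. In wts discs, CG15822 stood at 18.7, 20.8 and 16.2 CPM at day 5 and 28.9, 17.2 and 18.2 CPM at day 9. It had 18.9, 14 and 19.1 CPM in cic discs and 22, 19.1 and 30.0 CPM in control discs, ranges that overlap those of wts discs. CG33158 averaged 39.8 ± 3.16 CPM at day 5 and 34 ± 0.663 CPM at day 9 in cic wts discs, against 68 ± 0.892 CPM at day 5 and 60.8 ± 1.52 CPM at day 9 in wts discs. CG17211 averaged 90.0 ± 5.9 CPM at day 5 and 82.8 ± 8.06 CPM at day 9 in cic wts discs, against 134 ± 21.6 CPM at day 5 and 128 ± 16.9 CPM at day 9 in wts discs. Neither CG33158 (-0.10 ± 0.07, adjusted p = 0.31) nor CG17211 (-0.20 ± 0.12, adjusted p = 0.26) passed in wts against control discs.

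Counted by calls, the day of collection changed members about as often as all genes. In wts discs at day 9 against day 5, CG12964 and RhoGEF64C rose and 0 members fell, 2 of 27, or 7.41%, against 6.89% of all tested genes (4.19% higher, 2.7% lower). Of the 27 log2 fold changes, 22 were above 0, with a median of 0.14 against -0.02 over all genes. Values below 0 made up 18.5% of the members and 52.6% of all tested genes. In cic wts discs at day 9 against day 5, Argk rose, C15 and Dad fell and 24 did not pass, a share of 11.1% where 10.6% of all tested genes did (6.06% higher, 4.54% lower). Here 16 of 27 values (59.3%) were below 0, against 51.6% of all tested genes, with medians of -0.07 and -0.01. The difference between the 2 day effects was tested as the interaction of cic with day, after the data were seen. It passed for 0 of the 27 members and 0 of 9004 genes with edgeR. It had an unadjusted p under 0.05 for 9 members (33.3%) and 593 of all tested genes (6.59%). This difference is also the change between days in the comparison of cic wts with wts discs, which the rule used. The share of members is therefore not independent of the choice. It passed for 1 member and 3 genes in all with the replicate number as a block, and for 3 members and 32 genes in all with DESeq2. Within the double mutants, the lowest of the 6 values was that of day 9 replicate 3 for 12 members, of day 5 replicate 1 for 6, of day 5 replicate 2 for 0 and of each of the other 3 libraries for 3.

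Positions are from the release 6 annotation. Chromosome arm 3R, which carries both cic (20252770 to 20303942) and wts (30789625 to 30806619), held 9 members, 33.3% against 23.9% of the 6559 genes at the minimum level. Arm 3L held 9 (33.3% against 19.3%), 2R held 7 (25.9% against 20.1%), 2L held 2 (7.41% against 17.3%), and the X chromosome held 0 against 17.2% of genes. On 3R, the members nearest to cic were C15 (21499986 to 21512814), at 1.23 Mb, and CG14301 (18629151 to 18641457), at 1.64 Mb between midpoints. CG1969 (29738275 to 29741952) lay 1.06 Mb from wts. Dad (17054007 to 17070408), lute (17379944 to 17390265) and pnr (16026079 to 16041796) lie on the same arm, as does hh (23128169 to 23141906). So do the neighbours opa (4852813 to 4869979) and CG2016 (4956999 to 4961351), whose midpoints are 97.8 kb apart, the shortest distance between members. Of the 27 spans, 10 overlap another annotated gene. The sources used here do not give the strand setting of the counting. CG33158 spans aos, an EGFR feedback gene with 154 CPM in cic wts discs, 38.2 CPM in wts discs and 30.4 CPM in control discs at day 5. Vps13, which overlaps blow, stood at 425 CPM in cic wts discs and 426 CPM in wts discs.

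Other genes of the same pathways were examined from pathway lists, without the members. For comparisons of cic wts discs the 7 listed genes that met the numeric conditions and were set aside by name (Optix, Doc2, Doc3, ara, dpp, E(spl)m2-BFM and E(spl)m6-BFM) were also left out, since their falls were used in the choice. Other genes that the rule left out by name, vn, eyg and vg among them, did not meet its numeric conditions and stayed listed. In wts against control discs, where 18.2% of all tested genes passed, 26 of the 176 tested genes of all lists rose and 49 fell, and of the 12 other notum genes 1 rose and 3 fell. Set against control discs at day 5, cic wts discs had calls for 22.5% of all tested genes. Here 10 of 11 other notum genes fell and 0 rose, among them the homeobox gene B-H1 (-1.35 ± 0.21, adjusted p = 0.00038) and the proneural gene achaete (ac; -1.20 ± 0.14, adjusted p = 3.1e-05). Against wts discs at day 5, where 2.91% of all genes passed (1.04% higher, 1.87% lower), 3 of the 11 fell, led by eyegone (eyg; -0.86 ± 0.09, adjusted p = 6.9e-05) and the EGFR ligand gene vein (vn; -0.74 ± 0.06, adjusted p = 4.5e-06). At day 9, where 6.9% passed (2.89% higher, 4.01% lower), 3 fell and 1 rose, with tailup (tup; -1.29 ± 0.20, adjusted p = 0.00097) and vn (-1.28 ± 0.06, adjusted p = 9.1e-09) as the largest. Of 11 other compartment and Hedgehog genes, 4 fell against control discs, including the Hedgehog receptor and target gene patched (ptc; -0.89 ± 0.12, adjusted p = 8.6e-05) and knot (kn; -1.69 ± 0.30, adjusted p = 0.00097). Against wts discs 0 passed at day 5, and 3 rose and 1 fell at day 9. Of 11 other Dpp pathway genes, 3 rose and 1 fell against control discs, with the Dpp target bifid (bi; -1.70 ± 0.13, adjusted p = 7.0e-07) and the repressor of Dpp targets brinker (brk; 1.38 ± 0.15, adjusted p = 1.3e-05) in opposite directions. Against wts discs at day 5, bi fell (-0.66 ± 0.13, adjusted p = 0.012) and 0 rose; at day 9, 2 rose and 1 fell.

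The remaining lists are given as counts in cic wts against wts discs at day 5. Of 29 genes of the wing blade and hinge 3 fell and 0 rose, and of 21 Notch pathway genes 2 fell and 0 rose. Of 21 EGFR pathway and feedback genes 4 rose and 1 fell, with aos (2.00 ± 0.11, adjusted p = 3.4e-08) and pointed (pnt; 1.79 ± 0.11, adjusted p = 7.4e-08) the largest. Of 19 Yki/Sd target genes 0 rose and 1 fell, and of 12 sensory organ genes 0 passed. Of 21 adhesion genes 2 rose and 0 fell, of 12 glycolysis and hypoxia genes 0 rose and 1 fell, and of 18 ecdysone response genes 0 rose and 2 fell. Over all lists, 26 of 169 genes rose and 63 fell against control discs at day 5, 6 rose and 11 fell against wts discs at day 5, and 19 rose and 15 fell against wts discs at day 9.

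At the edge of the selection, the 4 members just inside the ratio of 0.77 were hh (0.734), RhoGEF64C (0.737), blow (0.761) and caup (0.761). The 4 genes just outside were CG8170 (0.773), Slh (0.777), chrb (0.782) and CG42699 (0.789), so the ratio has no gap there.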

How the data were processed

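RNA was sequenced from pooled wing discs in 18 libraries; the series has 31 samples, of which 13 are ChIP-nexus and not used here. The authors deposited raw read counts per gene, and the submitters' processing notes name Bowtie2, TopHat2, HTSeq, DESeq2 and the dm6 build, without versions used here. Counts were scaled to CPM by library totals (14201662 to 26217144) to choose the members. Tests used edgeR 4.0.16 in R 4.3.3: TMM scaling, a filter on low counts that left 9004 genes, 1 fit over all 6 groups, quasi-likelihood tests and Benjamini-Hochberg adjustment over all tested genes, with 0.05 as the threshold. DESeq2 1.42.0 was an alternative; the others were other scalings, no filter, a replicate block, only the groups compared, and each library, or several with transcripts of other tissues, left out. The code was tested on simulated data. Python 3.11.15, pandas 2.3.3 and matplotlib 3.10.9 made the selection and figures. Gene positions are from the RefSeq annotation of Release 6, in which 24 members matched by symbol and 3 by synonym.

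The members, lists and tests were chosen with earlier results of these data known. Values in every library are given for the 12 members with the lowest selection ratio, for up to 5 called members per tested comparison and for members on a pathway list. Other pathway genes are named by the largest absolute change among those called, up to 2 per list and comparison. Sequences are not shown. The lowest count of any member in a library was 9.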

Additional observations from a re-analysis of the deposited data

How the results depend on the processing

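Of 580 recomputed values and counts, 521 kept their direction and side of the threshold, 25 lost and 10 gained a call, 7 reversed and 17 counts moved by more than 1.5 times. With TMM-scaled library sizes, the scaling of the tests, the rule found 25 genes, and blow and nvy dropped out. Blow also left the set without cic day 5 replicate 1, wts day 5 replicate 1, wts day 9 replicate 1 or cic wts day 5 replicate 2. The selection found 17 genes at a ratio of 0.7, 43 at 0.85, 41 without cic wts day 5 replicates 1 and 2 and control replicate 3 (the 3 libraries below; chosen after seeing the data) and 26 to 36 when each library was left out. Members called in cic wts discs at day 9 against day 5 numbered 3, but 6 with DESeq2, 0 without the 3 libraries and 2 to 5 with each library left out. In wts discs at day 9 against day 5 the count of 2 became 1 to 2 with each library left out. For wts against control discs the count of 13 ranged from 11 to 15 with each library left out and was 9 without control replicates 2 and 3 (1 control library left, also chosen after seeing the data). Without the 3 libraries, 1 cic wts library of day 5 is left. Among the pathway lists, with the genes set aside by name included, the 96 genes called in cic wts against control discs became 53 without the 3 libraries (79 to 96 with each library left out), and the 24 called against wts discs at day 5 became 38 with DESeq2, 12 without the 3 libraries and 13 to 24 with each library left out. The log2 fold change of nvy in wts against control discs, 0.05, became -0.011 with total counts and ran from -0.0079 (without control replicate 3) to 0.10 with each library left out; it was also below 0 without wts day 5 replicate 3. That of Obp56a, -0.46, ran from -0.77 to 0.28 (without control replicate 3) with each library left out and became 0.30 without the 3 libraries and 0.24 without control replicates 2 and 3, where slv became 0.00034. None of these 7 reversed values passed the threshold. The causes were not tested, except that settings without libraries hold fewer samples. With total counts as the scaling, 37.0% of called genes in wts against control discs were higher, against 55.0% with TMM.

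The labels do not say that a replicate number marks a shared batch. Libraries with the same number correlated in their deviations from the group means at -0.14 to 0.44 (15 of 45 pairs over 0.1), and 12 of 18 libraries correlated best with their own number. With a replicate block the calls numbered 12 in wts against control discs and 1 for the difference of day effects (3 genes in all), which was 0 without the block and 3 with DESeq2 (32 genes in all). With 3 libraries per group and a biological coefficient of variation of 0.185, small changes could not be resolved.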
